A study of Mus musculus with 6 samples.

Results

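The genes described here are 10 of the 56691 genes counted, the scavenger receptor genes Cd163, Mrc1, Msr1, Marco, Cd36, Stab1, Scarb1, Cd68, Lrp1 and Cd5l. They were chosen by symbol, as scavenger and endocytic receptors of macrophages together with the related secreted protein CD5L, and the Ensembl identifier of each was found once in the count tables. All 10 passed the filter on low counts, in a set of 14856 tested genes. Scavenger receptors let macrophages bind and take up modified lipoproteins, apoptotic cells, microbial products and waste proteins from their surroundings. They are grouped by structure rather than by descent, and several bind overlapping sets of polyanionic ligands. In macrophages they are used both as markers of identity and as effectors of clearance, and the CD163 and CD206 proteins are common markers of alternatively activated or tissue-resident states.

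The libraries were made from total RNA of mouse bone marrow-derived macrophages, primary cells grown from marrow in culture. On day 6 the cells of 3 mice (a, b, c) received 2 µM thiothixene, an antipsychotic drug that blocks dopamine receptors, or the solvent DMSO, and were lysed 24 h later. Both treatments were applied to cells of every mouse, which gave 3 libraries a group, called thiothixene a or DMSO b and so on after treatment and mouse. Genotype, strain, sex, age and the growth factor used for culture are not given in the labels.

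Counts assigned to genes ranged from 10472349 to 22297520 per library, the lowest being DMSO b. The labelled cell type was checked with 12 macrophage markers, of which 11 passed the filter on low counts. The other, Itgam, had 1 count in thiothixene c and 0 in every other library. The markers summed to 11518 to 12934 CPM (counts per 1000000 gene counts, with TMM-adjusted library sizes) with thiothixene and 11226 to 20777 CPM with DMSO. Lyz2 made up much of these sums, at 5008 to 6556 CPM and 5031 to 11651 CPM. The B and T cell markers Ms4a1 and Cd3d had 0 counts in all 6 libraries, where a count of 0 allows up to 0.335 CPM in the thinnest library, for counting error only. Summed neutrophil markers lay at 395 to 435 CPM with thiothixene and 449 to 883 CPM with DMSO, and summed stromal markers at 57.5 to 301 CPM and 101 to 175 CPM. In bulk libraries fewer cells of a type and less RNA per cell cannot be told apart. Unaligned reads made up 4.516% to 4.978% of everything counted in thiothixene a and DMSO c, and 1.85% to 2.31% in the other 4 libraries. These 2 libraries and DMSO b are named where a result rests on them.

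To show the regulatory sequence next to the levels, 250 bases upstream of the start site are printed for Cd163 and Cd36, the members with the smallest p-values after the adjustment for base composition described further on, and for Cd5l, whose level hardly differed between the group means. RefSeq entries for GRCm38.p6 matched 8 of the 10 genes, and Msr1 and Scarb1 were not matched. The RefSeq start of Cd36 lies inside the longer gene span given with its levels. Capitals mark matches, on either strand, to a PU.1 core (GAGGAA), a Maf half-site (TGCTGA), an AP-1 site (TGANTCA) or a nuclear receptor half-site (AGGTCA). PU.1 and the Maf proteins are macrophage lineage factors, and retinoid and PPAR receptors bind the last of these motifs.
Cd163, chr6:124304401-124304650, plus strand: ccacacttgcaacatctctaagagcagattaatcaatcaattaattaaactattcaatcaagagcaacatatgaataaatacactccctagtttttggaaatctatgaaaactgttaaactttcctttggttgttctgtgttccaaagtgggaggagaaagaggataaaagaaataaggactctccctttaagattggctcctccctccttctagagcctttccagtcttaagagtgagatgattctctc
Cd36, chr5:17835897-17836146, minus strand: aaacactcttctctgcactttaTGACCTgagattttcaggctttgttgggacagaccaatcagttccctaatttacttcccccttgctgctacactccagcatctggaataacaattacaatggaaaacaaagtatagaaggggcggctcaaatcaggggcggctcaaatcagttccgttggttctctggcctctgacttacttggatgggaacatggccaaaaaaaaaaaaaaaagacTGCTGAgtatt
Cd5l, chr3:87357631-87357880, plus strand: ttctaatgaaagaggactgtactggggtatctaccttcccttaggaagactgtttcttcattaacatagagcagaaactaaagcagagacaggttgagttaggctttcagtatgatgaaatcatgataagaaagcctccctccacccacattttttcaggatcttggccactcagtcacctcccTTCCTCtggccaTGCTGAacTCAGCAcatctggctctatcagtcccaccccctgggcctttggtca

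The Cd163 window held 0 matches to the 4 motifs. In the Cd36 window a nuclear receptor half-site began 228 bases before the start site and a Maf half-site 11 bases before it. Cd5l carried a PU.1 core 66 bases before the start, followed by a pair of Maf half-sites in opposite orientation, 54 and 46 bases before it. A PU.1 core was present upstream of 5 of the 8 members, and 3 cores stood upstream of Mrc1. A Maf half-site was present upstream of 3 members, an AP-1 site of 1 and a nuclear receptor half-site of 1. Among 32851 RefSeq start sites 23.3% had a PU.1 core in the same window, 16.1% a Maf half-site, 6.75% an AP-1 site and 14% a nuclear receptor half-site. These matches describe letters, and no factor binding was measured.

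The receptors spanned a wide range of levels, from Cd68 and Cd36 at the top to Cd163 at the bottom. Levels were compared between genes as CPM per kilobase of annotated exon. Cd68, a heavily glycosylated protein of late endosomes and lysosomes, had 919, 1729 and 550 CPM per kb in DMSO a, b and c. The fatty acid and oxidized lipoprotein receptor gene Cd36 had 440, 375 and 817 CPM per kb in the same libraries. These 2 genes overlapped over libraries, Cd68 being the higher in 4 of 6, and both lay above Stab1 in all 6.

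A middle group of 5 genes followed, at similar levels per length. Stab1, the gene of stabilin-1, measured 225 ± 82.9 CPM per kb with DMSO (SD, n = 3). Cd5l, which encodes a secreted relative of the scavenger receptors that supports macrophage survival, measured 175 ± 86.9, and the large endocytic receptor gene Lrp1 157 ± 70.7 CPM per kb. Msr1, the class A receptor for modified lipoproteins, measured 132 ± 67.9, and the mannose receptor gene Mrc1 124 ± 55.9 CPM per kb. Every neighbouring pair among these 5 genes overlapped over the DMSO libraries, so their order was not resolved.

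A gap of 5.2-fold between DMSO means, with no overlap in any library, separated Mrc1 from the 3 genes at the bottom. Marco, a class A receptor for bacteria and particles, measured 23.8 ± 22.9 CPM per kb, Scarb1, the high-density lipoprotein receptor gene, 13.7 ± 6.69, and Cd163, the receptor gene for haemoglobin bound to haptoglobin, 7.17 ± 3.6 CPM per kb with DMSO (SD, n = 3). Marco came closest to Mrc1 in DMSO b, and the gap was 14.5-fold without DMSO b and 3.24-fold without DMSO c. Cd68 exceeded Cd163 by 149-fold in the DMSO means, by 91.2-, 549- and 66.3-fold in DMSO a, b and c, and by 80-fold in the means without DMSO b. Using the longest transcript as the length in place of all annotated exons put Scarb1 at 37.6 and Msr1 at 231 CPM per kb, so that Scarb1 ranked above Marco and Msr1 above Cd5l and Lrp1. The top 3 genes and Cd163 kept their ranks in the group means with either length.

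**Figure D1:**
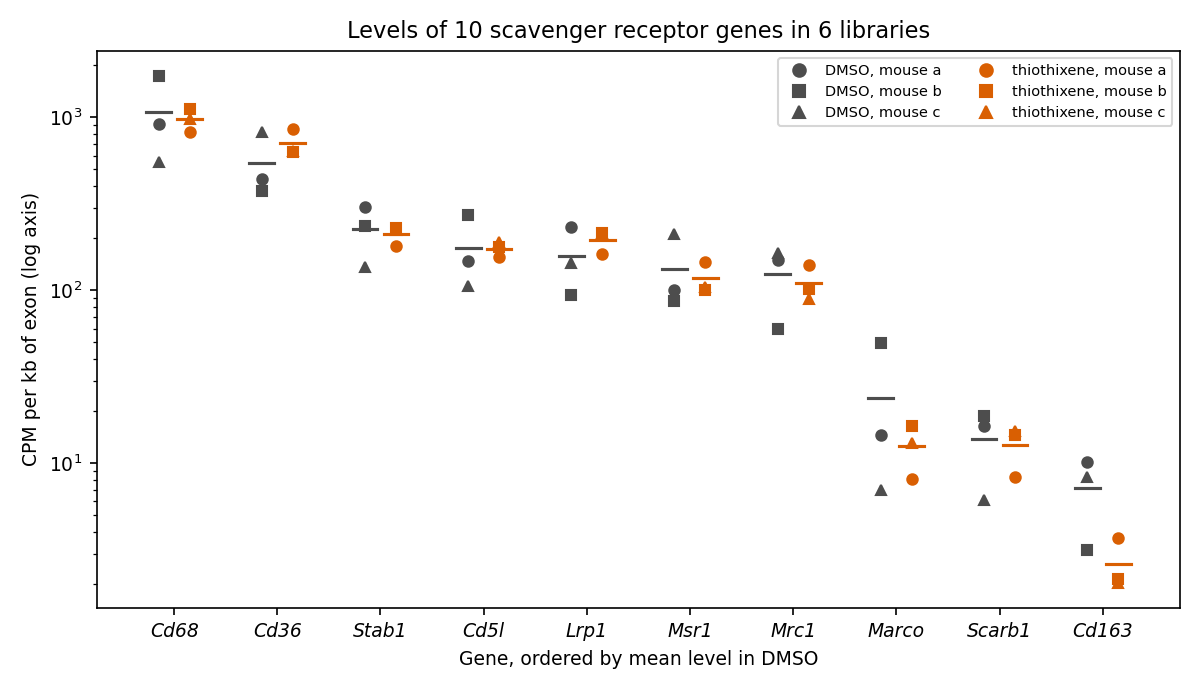
CPM per kilobase of exon (log axis) of the 10 genes in 6 libraries, ordered by the DMSO mean; points are libraries (shape, mouse; colour, treatment) and bars are group means. Cd68 and Cd36 lie above the rest in all libraries, and Cd163 has the lowest mean in both groups.

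As a share of the summed level per kilobase of the 10 genes, Cd68 took 33%, 43% and 39.5% in thiothixene a, b and c and 39.4%, 59.1% and 25.6% in DMSO a, b and c. Cd36 took 34.5%, 24.2% and 26% with thiothixene and 18.9%, 12.8% and 38% with DMSO. The makeup thus varied more among the DMSO libraries than between the group means, which were 38.5% and 41.4% for Cd68 and 28.2% and 23.2% for Cd36. Cd163 was 0.0822% to 0.149% of the summed level with thiothixene and 0.108% to 0.432% with DMSO. Together the 10 genes held 0.8% to 1.27% of all gene counts.

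By its title the study concerned antipsychotics and the uptake of dying cells by macrophages, and the comparison asked which receptor transcripts differed with the drug. In edgeR's quasi-likelihood test with Benjamini-Hochberg adjustment at 0.05, 0 of the 10 members were called, beside 0% of all tested genes. At an unadjusted p under 0.05 there was 1 member, Cd163, where 256 tested genes (1.72%) lay under that limit. DESeq2 called 2 genes and 0 members. Log2 fold changes were above 0 for 2 members and below 0 for 8, with a median of -0.12, beside a median of -0.04 over all tested genes. The thiothixene and DMSO libraries overlapped for all 10 members, whereas 6.65% of tested genes had groups that did not overlap. Within mice 1 member was lower with thiothixene in all 3, beside 6.87% of tested genes, and 0 were higher in all 3, beside 7.49%. Since no member was called, the values that follow are levels and estimates with their intervals.

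**Figure D2:**
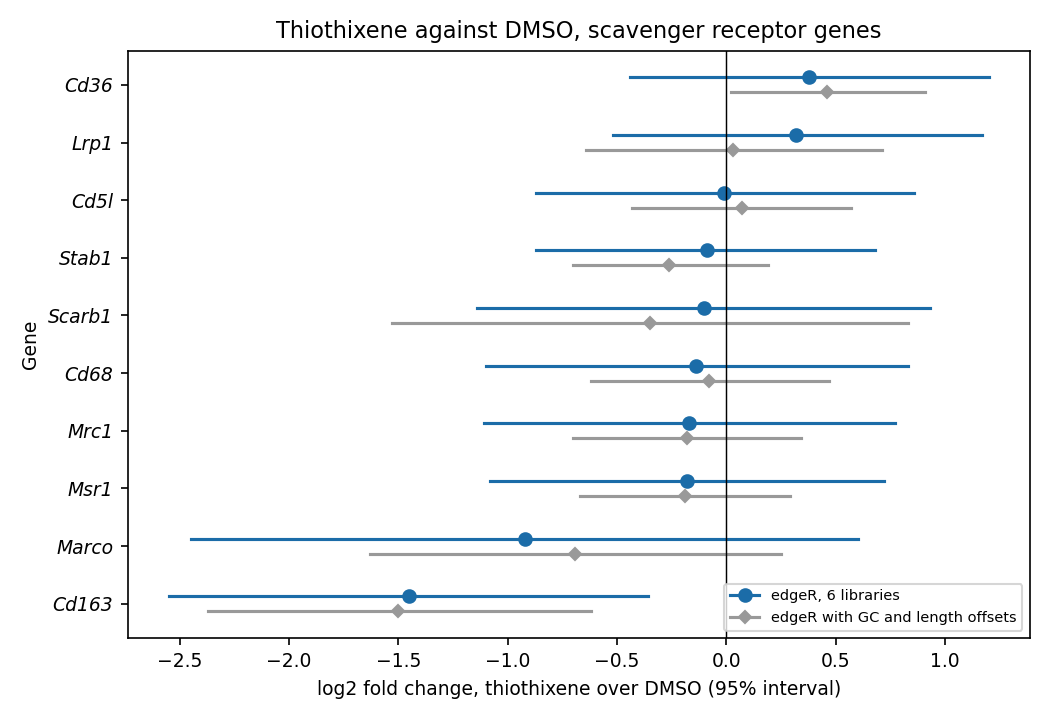
Log2 fold change (thiothixene over DMSO) with its 95% interval for each gene, from edgeR on all 6 libraries (circles) and with offsets that take GC content and length into account in each library (diamonds). Cd163 lies lowest at -1.45, and the other intervals span 0 except that of Cd36 with the offsets.

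Cd163 (ENSMUSG00000008845.10, chromosome 6, 124304656 to 124330527, plus strand, GRCm38 as for all positions here) had the largest estimated difference among the members and ranked 76th of 14856 genes by p. Its level was 20.1, 11.7 and 11.1 CPM in thiothixene a, b and c, and 55.0, 17.2 and 45.3 CPM in DMSO a, b and c. DMSO a and c stood high, while DMSO b lay below thiothixene a, so the groups overlapped in that pair. Within each mouse thiothixene was the lower library, by 2.73-fold for mouse a, 1.47-fold for mouse b and 4.06-fold for mouse c.

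For Cd163 edgeR gave a log2 fold change of -1.45 (SE 0.48; 95% interval -2.55 to -0.36), a level 2.74-fold lower, and an unadjusted p of 0.0154. Its adjusted p was 0.9998, so the difference did not pass. Counting error was small beside this spread, since the 154 counts of the thinnest library have a 95% Poisson interval of 131 to 180 counts, or 14.6 to 20.1 CPM. Between the 2 libraries with most unaligned reads the log2 ratio was -1.17, and among the other 4 libraries it was -1.66, with thiothixene below DMSO and no overlap. The share of all tested genes without overlap in those 4 libraries was not counted. Limma-voom with library quality weights called Cd163 at -2.08 (adjusted p 0.0269), in a fit that called 0.168% of tested genes. Those weights were 6.227 and 2.746 for thiothixene b and c, 2.283 for DMSO a, 0.5369 for thiothixene a and 0.2092 and 0.2281 for DMSO b and c, so that fit mainly set thiothixene in mice b and c against DMSO in mouse a.

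Macrophage markers were also mostly lower in the thiothixene means, with 10 of 11 tested below a log2 fold change of 0 and 0 called. Neutrophil markers were lower too, with 8 of 8 tested below 0 and 0 called. The share of all tested genes below 0 was not counted, and their median was -0.04. DMSO b held the highest sum of both lists, at 20777 CPM for macrophage and 883 CPM for neutrophil markers. In DMSO a and c the sums were 14789 and 11226 CPM, and 477 and 449 CPM. The summed classical monocyte markers lay at 106 to 133 CPM with thiothixene and 148 to 190 CPM with DMSO. The summed dendritic cell markers lay at 16.7 to 30.2 CPM and 8.49 to 15.9 CPM. Neither sum overlapped between the groups, and 6.65% of tested genes taken singly did not overlap either. The dendritic sum was mostly Itgax, at 15.7 to 28.7 CPM and 6.87 to 14.1 CPM. Zbtb46, the other tested marker of that list, was at 0.02 (SE 0.92). The scarce and untested Clec9a was lower with thiothixene in mice a and c. In mouse b it had 0.215 CPM with thiothixene and 0.223 CPM with DMSO, from 4 and 2 counts. These 2 values did not differ beyond counting error. Endothelial markers summed to 14.1 to 17.9 CPM and 12.2 to 14.9 CPM, and erythroid and mast cell, basophil and eosinophil markers to at most 6.81 CPM in any library. The part of these cell types in the Cd163 difference was not tested. A pair of macrophage markers is named here after their values were seen, the one of smallest p and the one above 0. Aif1, a calcium-binding protein gene of macrophages, measured 45.8, 26.4 and 39.5 CPM with thiothixene and 65.2, 186 and 87.5 CPM with DMSO. Its highest library was DMSO b, where Cd163 was lowest among the DMSO libraries. Mpeg1, the gene of a pore-forming macrophage protein, was above 0, at 2833 ± 83.2 CPM against 2103 ± 291 CPM (SD, n = 3).

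Genes that act next to the haemoglobin receptor were taken from a list of 11 heme handling genes. Of 10 tested, 3 were above 0 and 7 below, with a median log2 fold change of -0.29 and 0 called. The ferritin genes Fth1 and Ftl1, which encode the iron storage chains, were at -0.11 (SE 0.42) and -0.29 (SE 0.76). Hp, the haptoglobin gene, was scarce, with 3.07 ± 0.687 CPM against 5.92 ± 3.42 CPM (SD, n = 3).

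Cd36 (ENSMUSG00000002944.16, chromosome 5, 17781690 to 17888801, minus strand) had the highest estimate of the members. Its level was 3062, 2264 and 2300 CPM with thiothixene and 1579, 1346 and 2931 CPM with DMSO for mice a, b and c. Of the DMSO libraries only DMSO c reached the thiothixene range, and it exceeded the thiothixene library of its own mouse. Log2 ratios within mice were 0.96, 0.75 and -0.35. The edgeR estimate for Cd36 was 0.38 (SE 0.36; 95% interval -0.44 to 1.20), and its adjusted p was 0.9998. Among the 4 libraries with fewer unaligned reads the log2 ratio of means was 0.64 with no overlap, and between the other 2 it was 0.06. Stab1 and Scarb1 also had no overlap among those 4 libraries, at -0.25 and -0.23. With only 2 libraries a group such separation arises easily, and its share over all tested genes was not counted.

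**Figure D3:**
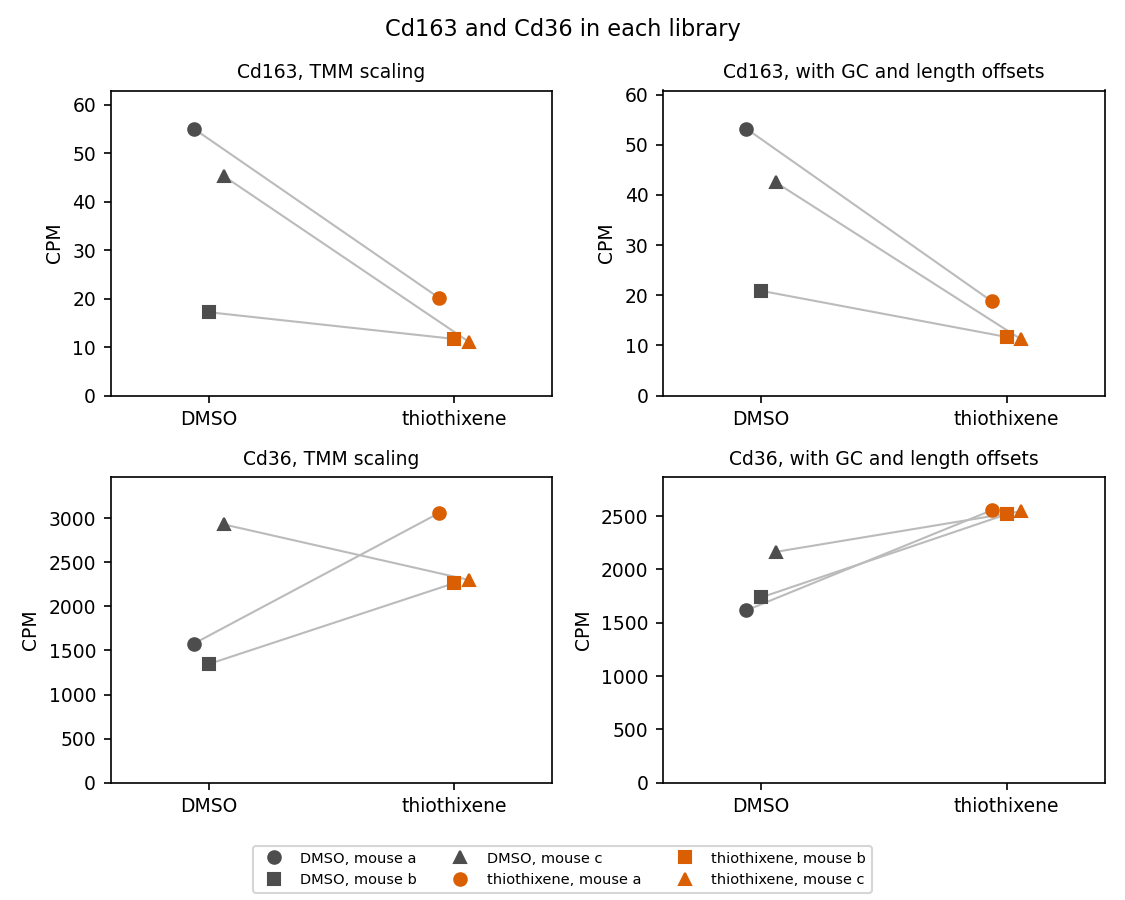
CPM of Cd163 and Cd36 in each library, with lines joining libraries of a mouse, under TMM scaling (left) and after offsets for GC content and length (right). Cd163 is lower with thiothixene in all 3 mice in both panels, and Cd36 is higher in all 3 mice only after the offsets.

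Scarb1, the other class B receptor gene (ENSMUSG00000037936.16, chromosome 5, 125277087 to 125341094, minus strand), encodes a receptor of lipoprotein uptake. It measured 70.9, 124 and 130 CPM with thiothixene and 139, 159 and 51.8 CPM with DMSO. The lowest values were those of the 2 libraries with most unaligned reads, one from each treatment. The Scarb1 estimate was -0.10 (SE 0.45; 95% interval -1.14 to 0.93).

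The class A genes differed from each other in which libraries stood out. Msr1 (ENSMUSG00000025044.17, chromosome 8, 39581685 to 39642673, minus strand) measured 927, 634 and 662 CPM with thiothixene and 636, 548 and 1334 CPM with DMSO, and DMSO c was the highest. The Msr1 log2 fold change was -0.18 (SE 0.39) and turned to 0.33 without that library. Marco (ENSMUSG00000026390.8, chromosome 1, 120474538 to 120505024, minus strand) measured 15.5, 31.5 and 25.3 CPM with thiothixene and 28.1, 95.9 and 13.4 CPM with DMSO. The spread of Marco, 7.16-fold over the 6 libraries, was the widest of the members, with DMSO b at the top. Marco was at -0.92 (SE 0.67), with an interval from -2.45 to 0.60, and at 0.22 without that library.

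Mrc1 encodes the mannose receptor CD206 (ENSMUSG00000026712.4, chromosome 2, 14229392 to 14332057, plus strand). It measured 889, 648 and 565 CPM with thiothixene and 948, 381 and 1037 CPM with DMSO. DMSO b was the lowest and the other 2 DMSO libraries were the highest, with all thiothixene libraries between them. Its log2 fold change was -0.17 (SE 0.41), and the interval from -1.11 to 0.77 left room for a 1.7-fold higher level or one at 0.464 of DMSO.

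Lrp1, the gene of a receptor that clears apolipoprotein and protease complexes and takes part in uptake of dying cells, spans chromosome 10, 127538161 to 127621148 on the minus strand (ENSMUSG00000040249.16). It measured 2854, 3784 and 3798 CPM with thiothixene and 4135, 1660 and 2550 CPM with DMSO. The DMSO libraries held both the highest and the lowest values. Lrp1 was at 0.32 (SE 0.37), with an interval from -0.52 to 1.17, and at 0.059 without DMSO b. Stab1 (ENSMUSG00000042286.14, chromosome 14, 31139013 to 31168641, minus strand), a receptor for acetylated lipoprotein and matrix proteins, measured 1856, 2351 and 2302 CPM with thiothixene and 3109, 2427 and 1413 CPM with DMSO. Its log2 fold change was -0.09 (SE 0.34), and 1.09% of its exon bases overlap Nt5dc2 on the other strand.

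Cd68 (ENSMUSG00000018774.14, chromosome 11, 69664213 to 69666153, minus strand) measured 1026, 1411 and 1223 CPM with thiothixene and 1156, 2173 and 691 CPM with DMSO. Cd5l (ENSMUSG00000015854.8, chromosome 3, 87357881 to 87371073, plus strand) measured 315, 361 and 387 CPM with thiothixene and 299, 555 and 216 CPM with DMSO. In both genes DMSO b was the highest library and DMSO c the lowest, with the thiothixene libraries between. Log2 fold changes were -0.14 (SE 0.42) for Cd68 and -0.01 (SE 0.38) for Cd5l. Their 95% intervals ran from -1.10 to 0.83 and from -0.87 to 0.86.

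In all 10 genes the DMSO libraries were spread further apart than the thiothixene libraries. The highest DMSO library exceeded the lowest by 2.18-fold for Cd36 up to 7.16-fold for Marco. Among the thiothixene libraries the same ratio ran from 1.23-fold for Cd5l to 2.03-fold for Marco. The DMSO range was also the wider for 84.3% of all tested genes, with a median log2 range of 1.25 for DMSO and 0.56 for thiothixene, beside 1.4 and 0.50 for the members. Over genes, DMSO b and DMSO c were the least alike of all pairs of libraries (Pearson's r of log2 CPM 0.825).

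In thiothixene a and DMSO c the members with the fewest G and C bases stood high and most others low. Msr1 and Cd36, with a GC content of 38.4% in the longest transcript, and Mrc1 with 43.4% were above their mean in thiothixene a and DMSO c, and Msr1 and Cd36 were below it in both other DMSO libraries. Scarb1 with 48.5%, Cd5l with 51.5%, Cd68 with 52.9%, Marco with 54.5%, Stab1 with 57.3% and Lrp1 with 57.9% were below their mean in thiothixene a and DMSO c. In DMSO c the deviation was 0.83 for Msr1 and -1.04 for Marco on the log2 scale, in DMSO b -0.46 and 1.79, and in thiothixene a 0.30 and -0.83. Lrp1 departed from the other GC-rich members in DMSO b, at -0.85 where Cd68 was at 0.85. Cd163 with 47.9% was above its mean in DMSO a and c alone.

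Over 14565 tested genes with a known GC content the same tilt was present. Spearman's rho between a gene's deviation and its GC content, given as a description across genes of a library, was -0.618 in DMSO c and -0.523 in thiothixene a. It was 0.455 in DMSO b and 0.176 to 0.425 in the other 3. Gene length was also related to the deviation, with a rho of -0.369 in DMSO b, 0.255 in DMSO c and 0.225 in thiothixene a. In the other 3 libraries it lay between -0.0588 and 0.0614. Lrp1 was the longest member at 17717 exon bases.

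When each library was given an offset by GC content and gene length, the member levels drew together. The SD within groups was smaller in 9 of 10 members, with a median of 0.57 before and 0.29 after on the log2 scale, beside 0.54 and 0.40 over all tested genes. Scarb1 was the exception, at 0.71 without and 0.90 with the offsets. DMSO b still stood high for Marco, at 64.3 CPM beside 19.5 to 28.5 CPM in the other 5 libraries.

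After the offsets Cd163 and Cd36 were the 2 members whose groups did not overlap, where 10.7% of tested genes had no overlap under the same offsets. Cd163 measured 18.8, 11.7 and 11.2 CPM with thiothixene and 53.2, 20.9 and 42.5 CPM with DMSO, a log2 fold change of -1.50 (SE 0.38). Cd36 measured 2554, 2516 and 2545 CPM with thiothixene and 1616, 1737 and 2164 CPM with DMSO, a log2 fold change of 0.46 (SE 0.19). Thiothixene was thus the higher library for Cd36 in 3 of 3 mice. Unadjusted p-values in edgeR were 0.00421 for Cd163 and 0.0424 for Cd36, where 3.78% of tested genes were under 0.05, and adjusted p-values were 0.8334 and 0.9777, so neither was called. The other 8 log2 fold changes after the offsets lay between -0.69 for Marco and 0.07 for Cd5l.

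**Figure D4:**
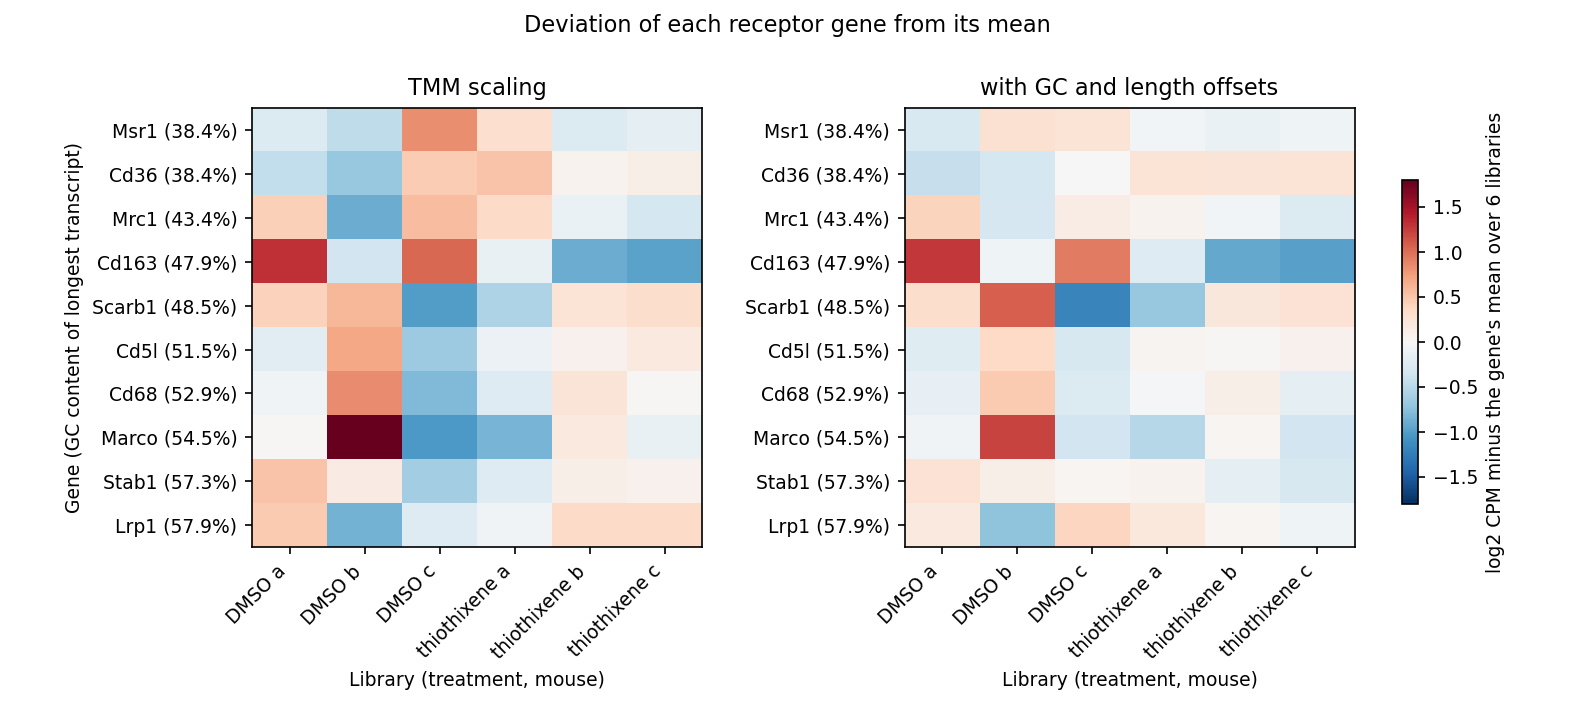
Deviation of log2 CPM from the gene's mean over 6 libraries (colour; red higher, blue lower) for the members ordered by GC content, under TMM scaling (left) and after offsets for GC content and length (right). On the left the low-GC genes Msr1 and Cd36 are red and the higher-GC Marco and Scarb1 blue in DMSO c, and on the right the contrast is weaker for most genes, with Scarb1 an exception.

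Similarity of pattern was described over the 6 libraries for the 3 members of widest range, without a test. The tested genes closest to Cd163 by Pearson's r of log2 CPM were Adgb (0.993), Ccni (0.987) and Slc9a9 (0.985), and 21 genes exceeded an r of 0.95. Marco had 762 such genes and was closest to Ifi30, Pdf and Mcrs1 (0.998 for each), and Cd68 had 810, led by Qdpr (0.999), Phlda3 (0.996) and Msto1 (0.996). Correlations this high were thus common for Marco and Cd68 and scarcer for Cd163.

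Further scavenger receptor genes were read from a list of 18, of which 12 were tested, 5 above 0 and 7 below with a median of -0.11 and 0 called. Clec7a, the beta-glucan receptor dectin-1, measured 126, 98.7 and 83.9 CPM with thiothixene and 55.0, 53.1 and 56.9 CPM with DMSO, with no overlap. EdgeR put Clec7a at 0.90 (SE 0.28, adjusted p 0.9998). Cxcl16 and Stab2 of the same list also had no overlap but were lower with thiothixene, at -0.98 (SE 0.34) and -0.76 (SE 0.39). The abundant Scarb2, a lysosomal membrane protein gene, and Cd44, the hyaluronan receptor gene, were at -0.13 (SE 0.26) and 0.15 (SE 0.30).

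Among 16 tested adaptor, chaperone and sheddase genes, 5 were above 0 and 11 below, with a median of -0.13 and 0 called. Cltc, the clathrin heavy chain gene, was at -0.05 (SE 0.46). The endocytic adaptor gene Dab2 measured 1182, 869 and 1020 CPM with thiothixene and 1437, 797 and 2384 CPM with DMSO, with DMSO c far above the rest.

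Of 15 transcription factor genes linked to these receptors 8 were above 0 and 7 below, with a median of 0.01 and 0 called. Maf, a factor of tissue macrophages, measured 491, 473 and 517 CPM with thiothixene and 722, 447 and 845 CPM with DMSO. As for Cd163, DMSO a and c were the highest for Maf, while DMSO b was the lowest of the 6. The Maf log2 fold change was -0.44 (SE 0.31), without a call. Spi1, the gene of PU.1, was at -0.33 (SE 0.35) and was highest in DMSO b, at 508 CPM.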

How the data were processed

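Each library came as a separate table in which the authors deposited raw whole counts of reads for 56691 genes, plus 5 summary rows. These summary rows (43.07% to 44.35% of each table's total lay outside genes) were kept out of library sizes. Per the submitters' processing notes, which assign no roles, the tools were STAR 2.7.11b, DESeq2 1.44, FastQC 0.11.8 and Trim Galore 0.6.10, with mm10 as the build. Which program counted the reads, with which strand setting and annotation, is not given in the sources used here.

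Symbols, lengths, GC content and positions came from GENCODE M21 (GRCm38), where 52073 identifiers matched without version numbers. Differences were tested in R 4.3.3 by the robust quasi-likelihood test of edgeR 4.0.16, with TMM scaling, the default expression filter, treatment alone and Benjamini-Hochberg adjustment at 0.05. SEs are the absolute log2 fold change over the square root of F. Offsets were splines with 5 degrees of freedom on GC content and length, fitted to each library. Alternatives used DESeq2 1.42.0 and limma 3.58.1, other filters and scalings, the mouse block and left-out libraries. Fits on the 2 libraries with most unaligned reads were added after the data were seen.

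The members, gene lists and settings were chosen with earlier results of these data known. Of each list of related receptor and pathway genes the called genes or, with none, the 2 most abundant and the one of smallest p are named, while marker lists are given as counts and sums, plus the 3 genes most like the 3 members of widest range. Any further gene of these lists was named after its values were seen. Replicates are separate mice, and same-letter libraries share a mouse. Their deviations correlated at -0.131, 0.318 and -0.301 for mice a, b and c. Between mice the values ran from -0.411 for thiothixene a with DMSO b to 0.486 for thiothixene a with DMSO c. The closest pair was thus not one of the same mouse. A related gene list and a marker are not reported here.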

Additional observations from a re-analysis of the deposited data

How the results depend on the processing

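The counts of 0 called genes and 0 called members became 25 and 1 (Cd163) with limma-voom and library quality weights. All-gene counts were also 1 without a low-count filter, 2 in DESeq2, and 0 to 45 when single libraries or mice were left out, the 45 without mouse c, while called members stayed at 0 in these. A replicate block for the mouse gave 0 called genes and 0 called members and changed no call. Cd163, Cd36 and Lrp1 kept their sign in all 21 alternative settings, Cd163 from -2.08 to -1.0, Cd36 from 0.17 to 0.86 and Lrp1 from 0.0053 to 0.88. Among these settings the adjusted p limit of 0.1 reused the main estimates, so it could not turn a sign. In all, 34 of 210 estimates turned sign, all of them uncalled, and the cause was not tested. In limma-voom the log2 fold change was 0.016 for Scarb1, 0.021 for Cd68 and 0.12 for Cd5l. With quality weights it was 0.012 for Marco, 0.20 for Cd68 and 0.27 for Cd5l. With the replicate block it was 0.0052 for Cd68 and 0.10 for Cd5l. Cd5l was at 0.036 without a filter, 0.071 with the offsets, 0.10 with offsets and replicate block, and 0.055 with a term for the 2 libraries with most unaligned reads. Msr1 was at 0.13 without those 2 libraries. When single libraries or mice were left out, the estimates ran from -0.50 to 0.35 for Mrc1, -0.41 to 0.39 for Msr1, -1.36 to 0.22 for Marco, -0.39 to 0.33 for Stab1, -0.65 to 0.49 for Scarb1, -0.45 to 0.40 for Cd68 and -0.26 to 0.46 for Cd5l. The common dispersion over all tested genes was 0.212, which is a coefficient of variation of 46% between libraries.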
